A study of Mus musculus with 10 samples.

Results

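Hes7, Lfng, Dll1, Dll3, Mesp1, Mesp2, Ripply2, Nrarp and Notch1 are genes of the segmentation clock and of the Notch pathway that drives it, and their chromatin accessibility was followed through the differentiation of mouse embryonic stem cells towards neuromesodermal progenitors. ATAC-seq, in which a transposase cuts and tags accessible DNA, gave peaks in each of 10 libraries, and overlapping peaks of all libraries were merged into 246799 regions. A region was counted for one of the 9 genes when the nearest protein-coding gene span, within 50 kb, was that gene, which gave 95 regions. Of these, 23 went to Notch1, 16 each to Dll1 and Nrarp, 10 to Ripply2, 8 each to Lfng and Mesp1, 6 to Hes7, 5 to Dll3 and 3 to Mesp2. The filter on low counts left 77 of the 95 regions and 173175 of all regions, and all 9 genes were among the 18879 tested on counts summed over a gene's regions.

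All libraries came from wild-type cells (labelled WT) of the ES-Bruce4 embryonic stem cell line of C57BL/6 origin, with 2 libraries in each of 5 groups and 50000 cells per library. The cells of every group received bFgf (10 ng/ml) from day 0, and CHIR99021 (5 µM), an activator of Wnt signalling, was added on day 2. Cells without Gdf11 were collected on days 2, 3, 6 and 7. Whether the day 2 cells were taken before or after CHIR99021 was added is not stated, which bears on each comparison with day 2. The cells of the remaining group received human Gdf11 (50 ng/ml) on day 6 and were collected 24 h later on day 7. The day 2 cells are labelled as epiblast stem cells and all later ones as neuromesodermal progenitors, the posterior cells that give rise to spinal cord and paraxial mesoderm. The stem cells had been kept on mouse embryo fibroblast feeders, which were depleted before the start. Nothing in the labels tells if both libraries of a group had their own culture, and the p-values then measure only the spread between libraries, which may be technical.

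In Notch signalling a ligand such as Dll1 on one cell binds a receptor such as Notch1 on its neighbour, and the cleaved receptor enters the nucleus and activates targets together with the DNA-binding protein RBPJ. In the presomitic mesoderm of the embryo the pathway runs in cycles: Hes7 represses its own transcription and that of Lfng, and Lfng modifies the Notch receptor with sugars. The wave ends at the anterior end of this tissue, where Mesp2 and Ripply2 set the next somite boundary. Libraries made from many cells average over the phases of such a cycle, and fewer accessible cells and less accessible chromatin per cell cannot be told apart in them.

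Total counts ranged from 7150334 to 12335735 per library, and between 9.25% and 13.42% of them fell on the mitochondrial chromosome. Levels are given as CPM, read counts scaled to the effective size of each library, and a change is the log2 ratio ± its standard error from edgeR's quasi-likelihood test, called when the Benjamini-Hochberg adjusted p over all regions or all genes was under 0.05. The labelled cell states were set against marker lists. Of 9 caudal epiblast and neuromesodermal progenitor genes, 5 were higher on day 3 than on day 2, where 12.4% of all genes were. The summed level of the 9 went from 403 to 441 CPM on day 2 to 576 to 585 CPM on day 3. Of 6 pluripotency and epiblast genes, 5 were lower on day 3 than on day 2, where 10.4% of all genes were. All 6 were lower on day 7 than on day 2, where 23.0% of all genes were. Counts summed over regions near a gene include background cuts, and no gene of the marker lists was at 0 in both libraries of any group, so these sums cannot show that a cell type was absent.

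The number of regions called differed between the steps of the protocol and is given beside the shares over all regions. Between day 2 and day 3, 9 of the 77 regions rose and 4 fell, where 8.84% of all tested regions rose and 4.34% fell; without day 3 replicate 1 the total was 8 in place of 13. Between day 3 and day 6, 12 rose and 10 fell, where 9.17% of all regions rose and 6.06% fell; without day 6 replicate 1 the total was 11 in place of 22. Between day 6 and day 7, 3 rose and 0 fell, where 0.975% rose and 0.206% fell, with 1 left without day 6 replicate 2 or without day 7 replicate 2. After Gdf11, 0 rose and 8 fell against day 7, where 1.09% of all regions rose and 2.65% fell. That count was 3 without day 7 replicate 2 or without day 7 Gdf11 replicate 1, and 4 without TMM factors, the scaling factors between libraries, when 52.2% in place of 29.1% of all called regions were higher. Over the whole course from day 2 to day 7, 21 rose and 13 fell, where 22.0% rose and 15.7% fell; without day 7 replicate 1 the total was 22 in place of 34. As shares of the 77, 11.7% rose and 5.19% fell at day 3, and 27.3% rose and 16.9% fell from day 2 to day 7. These 2 pairs lay near the shares of all regions. At day 6, 15.6% rose and 13% fell, 3.9% rose at day 7, and 10.4% fell with Gdf11. In all, 46 of the 77 were called in at least 1 of the 6 comparisons. The same count was not made over all regions, so it cannot be read as a trait of these genes.

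Summed over each gene's regions, fewer changes passed. Lfng alone of the 9 genes changed between day 2 and day 3, downward, where 12.4% of all genes rose and 10.4% fell; the total was 2 without day 2 replicate 1 or without day 3 replicate 2. Hes7 and Ripply2 fell between day 3 and day 6, where 9.48% of genes rose and 10.8% fell. Hes7, Dll1, Nrarp and Notch1 rose between day 6 and day 7, where 3.64% rose and 0.673% fell, and the 4 calls became 2 without day 6 replicate 2 and 1 without day 7 replicate 2. These 4 genes and Lfng fell with Gdf11 against day 7, where 2.09% rose and 11.4% fell. From day 2 to day 7, Dll1, Nrarp and Notch1 rose and Dll3, Mesp2 and Ripply2 fell, where 29.6% of genes rose and 23.0% fell. The median log2 change of the 9 genes was 0.11 at day 3, -0.29 at day 6, 0.35 at day 7 and -0.45 with Gdf11 against day 7, beside 0.00, -0.02, 0.06 and -0.10 over all tested genes.

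**Figure D1:**
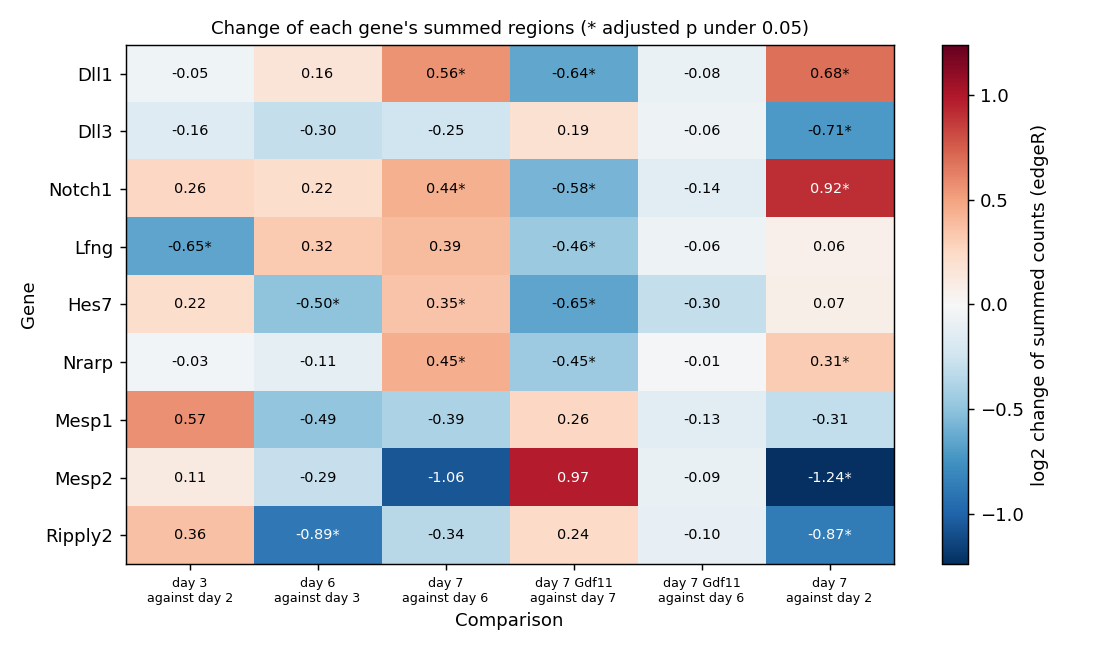
Log2 change of the counts summed over each gene's regions (rows) in the 6 comparisons (columns), with colour and number giving the change and an asterisk an adjusted p under 0.05. Dll1, Notch1, Lfng, Hes7 and Nrarp are lower with Gdf11 than on day 7 without it, and no gene is called between day 7 with Gdf11 and day 6.

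Among the ligands, Dll1, which activates Notch in neighbouring cells, stayed level until day 6 and rose on day 7. Its summed level was 109 and 99.5 CPM on day 2, 99.1 and 103 on day 3, and 111 and 115 on day 6. It then stood at 159 and 175 CPM on day 7, and at 92.8 and 121 CPM on day 7 with Gdf11. Both untreated day 7 libraries lay above the other 8, whose ranges ran into each other. Dll1 was 1.47-fold higher on day 7 than on day 6 (0.56 ± 0.10, adjusted p = 0.000367) and 1.56-fold lower with Gdf11 than on day 7 (-0.64 ± 0.10, adjusted p = 2.19e-05). Counted only over regions that overlap the gene span, the rise at day 7 was 0.33 and did not pass (adjusted p = 0.247).

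The Dll1 region called in the most comparisons lay outside the gene, at chr17:15381990-15382579 (mm10), centred 5.35 kb upstream of the nearest listed start; the next nearest gene, Fam120b, was 13.6 kb away. It held 3.89 and 4.18 CPM on day 2, 6.14 and 6.12 on day 3, 19.7 and 15.3 on day 6, and 35.1 and 43.3 on day 7. With Gdf11 it held 14.5 and 15.4 CPM, in the range of day 6 or just below it. The region rose 2.87-fold from day 3 to day 6 (1.52 ± 0.22, adjusted p = 6.83e-07) and 2.21-fold from day 6 to day 7 (1.15 ± 0.19, adjusted p = 0.000207). It was 2.61-fold lower with Gdf11 than on day 7 (-1.39 ± 0.20, adjusted p = 2.07e-06). The authors' peak lists held a peak there in no day 2 library, 1 of 2 day 3 libraries and both libraries of each later group. A smaller neighbour, at chr17:15381532-15381757, held between 1.49 and 2.02 CPM in the day 2 and day 3 libraries and between 5.41 and 10.8 CPM in the later 6. It rose 4.52-fold from day 3 to day 6 (2.18 ± 0.35, adjusted p = 3.45e-06).

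Dll1 has 2 listed starts. The region over the inner start (chr17:15375753-15376373) had between 23.9 and 41.9 CPM in all 10 libraries and was called in none of the 6 comparisons. The region over the outer start (chr17:15376904-15377168) held 9.07 and 3.64 CPM on day 2 and 16.8 and 16.3 CPM on day 7, a 2.55-fold rise (1.35 ± 0.28, adjusted p = 9.1e-05). No test compared the 2 starts directly.

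Dll3, a ligand-like protein that blocks Notch signalling within the cell that makes it, fell slowly. Its 5 regions summed to 27.1 and 25.9 CPM on day 2, 21.7 and 26.3 on day 3, 21.4 and 16.8 on day 6, 16.5 and 15.8 on day 7, and 17.3 and 19.9 with Gdf11. No single step was called, and the ranges of neighbouring times overlapped or nearly met. The change over the whole course was 1.63-fold downward (-0.71 ± 0.17, adjusted p = 0.000827). Of its regions, only the one just upstream of the start, at chr7:28302154-28302578, was called, at -0.95 ± 0.31 between day 2 and day 7 (adjusted p = 0.0116). Without day 7 replicate 1 that change was -0.51 and did not pass (adjusted p = 0.356). The region over the Dll3 start, chr7:28301758-28301990, held between 1.22 and 3.58 CPM over the 10 libraries.

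**Figure D2:**
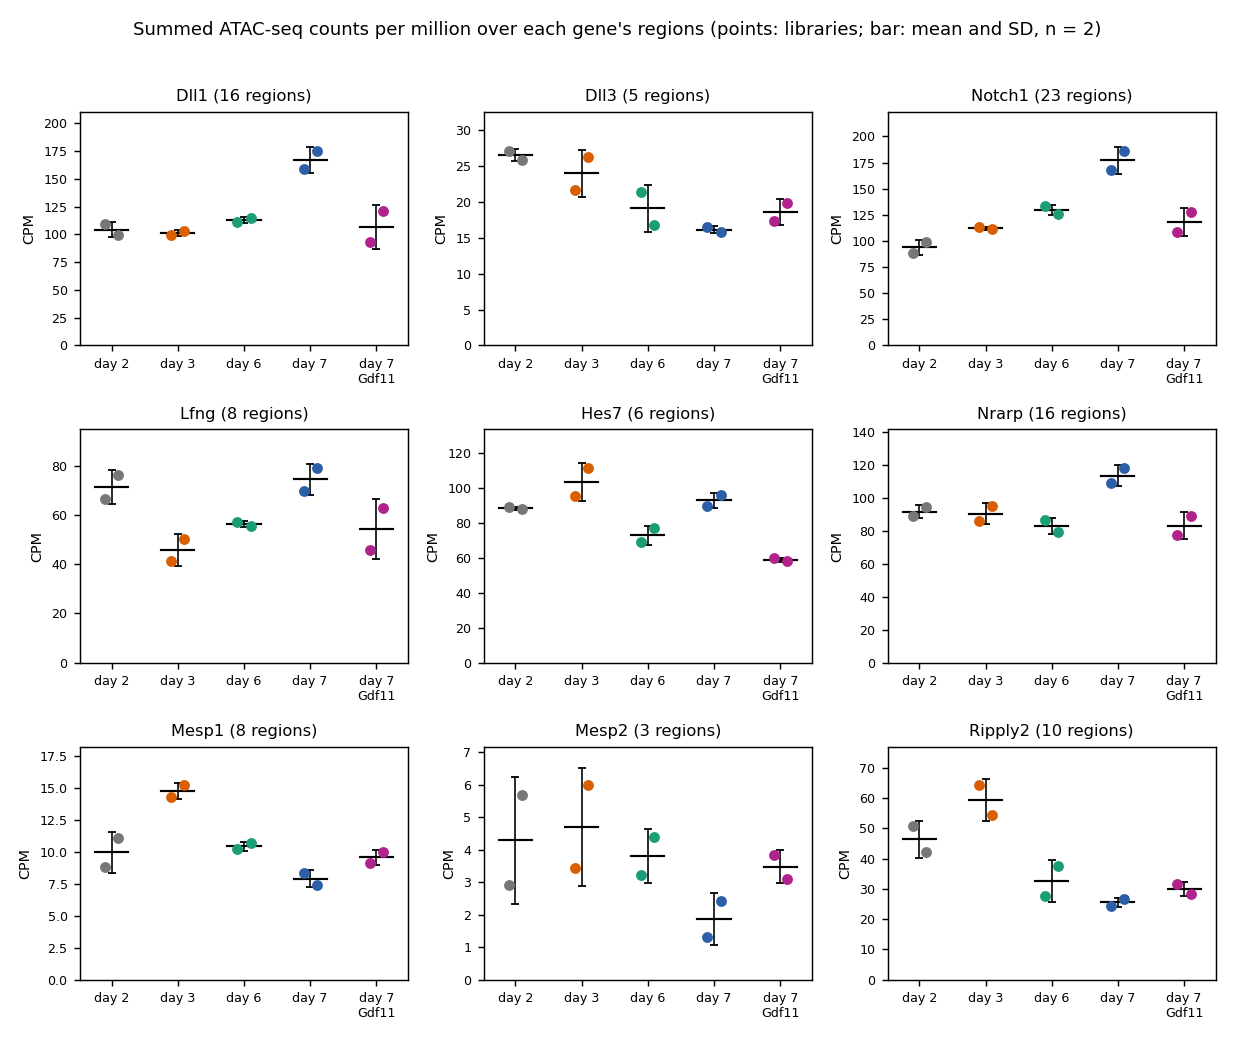
CPM summed over the regions of each gene (vertical axis, from 0) in the 5 groups (horizontal axis); points are the 10 libraries, and bars give the mean and SD of the 2 libraries of a group. Notch1 climbs from 88.9 and 98.8 on day 2 to 168 and 186 on day 7, and Ripply2 drops between day 3 and day 6.

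Notch1, the receptor, gained accessibility up to day 7. Its 23 regions summed to 88.9 and 98.8 CPM on day 2, 113 and 111 on day 3, 133 and 126 on day 6, 168 and 186 on day 7, and 109 and 128 with Gdf11. The groups from day 2 to day 7 followed each other without overlap, and of the Gdf11 libraries 1 lay between days 2 and 3 and the other within day 6. Notch1 was 1.89-fold higher on day 7 than on day 2 (0.92 ± 0.10, adjusted p = 3.02e-10). The step from day 6 to day 7 was 0.44 ± 0.09 (adjusted p = 0.0026) and was 0.40 without day 7 replicate 2 (adjusted p = 0.0741). With Gdf11 it was 1.5-fold lower than on day 7 (-0.58 ± 0.09, adjusted p = 3.21e-05).

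Inside Notch1 the regions moved in opposite directions. The gene spans chr2:26457902-26503822 on the minus strand, and 16 of its regions lay in the span. The RefSeq gene table used here gives no exons, so introns and exons could not be assigned. At 2.98 kb downstream of the start, the region chr2:26500544-26501134 rose from 8.74 and 5.53 CPM on day 2 through 15.0 and 15.7 on day 3 and 30.3 and 28.0 on day 6 to 46.6 and 57.2 on day 7. With Gdf11 it held 32.3 and 36.6 CPM. Each step up to day 7 was called, and the whole rise was 7.13-fold (2.83 ± 0.20, adjusted p = 7.34e-18). The last step, 0.82 ± 0.17, did not pass without day 6 replicate 2 (0.80, adjusted p = 0.0709) or without day 7 replicate 2 (0.71, adjusted p = 0.157).

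A second region, chr2:26501668-26502023, 1.98 kb downstream of the start, was already open on day 3. It held 3.89 and 4.05 CPM on day 2, 14.0 and 12.1 on day 3, 19.5 and 22.5 on day 6, 22.7 and 21.4 on day 7, and 12.6 and 17.1 with Gdf11. Its rise at day 3 was 3.31-fold (1.73 ± 0.25, adjusted p = 5.19e-07), and peaks were listed in no day 2 library and in both libraries of every later group. Another, chr2:26487210-26487992 at 16.2 kb, rose from 4.21 and 4.72 CPM on day 2 to 24.8 and 28.0 CPM on day 7. It fell 2.45-fold with Gdf11, to 8.98 and 12.7 CPM (-1.29 ± 0.22, adjusted p = 4.58e-05). One more, chr2:26488862-26489092 at 14.8 kb, held at most 0.648 CPM on days 2 and 3 and 5.03 and 2.26 CPM on day 6, an 11-fold rise (3.46 ± 0.61, adjusted p = 2.34e-05) on few counts.

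One region near the far end of Notch1 closed while these opened. At 44.2 kb downstream of the start, chr2:26459456-26459875 held 19.8 and 20.4 CPM on day 2, 10.5 and 12.4 on day 3, 2.89 and 4.66 on day 6, 1.95 and 2.74 on day 7, and 3.05 and 4.44 with Gdf11. The decline from day 2 to day 7 was 8.76-fold (-3.13 ± 0.31, adjusted p = 1.03e-12). Groups up to day 7 did not overlap, in the order opposite to that of the rising regions. Of the 20 tested Notch1 regions, 8 rose and 4 fell between day 2 and day 7, where 22.0% of all regions rose and 15.7% fell. A small region 31.9 kb upstream of the start, chr2:26535573-26535907, held 3.72 and 7.76 CPM on day 7 and 1.83 and 1.67 with Gdf11. Its fall of -1.67 ± 0.46 (adjusted p = 0.0237) did not pass in DESeq2 (adjusted p = 0.0765) or without day 7 replicate 2 (-1.10, adjusted p = 0.515), day 7 Gdf11 replicate 1 (-1.77, adjusted p = 0.13) or day 7 Gdf11 replicate 2 (-1.65, adjusted p = 0.113), nor without TMM factors (-1.48, adjusted p = 0.0656).

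The region over the Notch1 start was highest on day 3. At chr2:26503625-26504330 it held 20.7 and 27.3 CPM on day 2, 29.5 and 29.7 on day 3, 17.3 and 19.9 on day 6, 25.6 and 26.2 on day 7, and 12.4 and 16.6 with Gdf11. It fell at day 6 (-0.67 ± 0.19, adjusted p = 0.00823; -0.55 and 0.175 without day 6 replicate 1) and was 1.8-fold lower with Gdf11 than on day 7 (-0.84 ± 0.19, adjusted p = 0.00373). Without day 7 Gdf11 replicate 1 the latter was -0.67 (adjusted p = 0.15). The region covers all 250 bases before the listed start, which are shown because their accessibility moved while none of the 6 motifs searched below occurs in them. They lie at chr2:26503823-26504072 on the minus strand, in the RefSeq promoter table for GRCm38.p6, the same assembly as mm10.
Notch1: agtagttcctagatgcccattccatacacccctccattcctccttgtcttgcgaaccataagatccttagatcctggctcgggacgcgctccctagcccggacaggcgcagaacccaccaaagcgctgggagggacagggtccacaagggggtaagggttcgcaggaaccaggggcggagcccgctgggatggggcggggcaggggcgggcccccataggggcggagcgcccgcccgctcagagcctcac

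Lfng, the glycosyltransferase that cycles with the clock, was the gene whose sum fell at day 3. Its 8 regions summed to 66.4 and 76.3 CPM on day 2, 41.1 and 50.3 on day 3, 57.2 and 55.5 on day 6, 69.8 and 78.9 on day 7, and 45.6 and 62.9 with Gdf11. Days 2 and 7 overlapped and day 3 lay below both. The drop at day 3 was 1.57-fold (-0.65 ± 0.13, adjusted p = 0.000429). With Gdf11 the change against day 7 was -0.46 ± 0.13 (adjusted p = 0.0157), which did not pass without day 7 replicate 2 (-0.40, adjusted p = 0.129) or without day 7 Gdf11 replicate 1 (-0.27, adjusted p = 0.306).

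Neighbouring regions inside Lfng changed at different times. The region chr5:140611875-140612249, 4.72 kb downstream of the start, held 19.5 and 19.7 CPM on day 2 and 6.93 and 8.21 CPM on day 3, a 2.62-fold fall (-1.39 ± 0.26, adjusted p = 6.71e-05). In the 6 later libraries its level lay between 3.92 and 13.1 CPM. It was called lower with Gdf11 than on day 7, but that call did not pass in 6 of 10 alternatives. Among these were DESeq2 (-0.90, adjusted p = 0.115) and the test without TMM factors (-0.73, adjusted p = 0.133). Less than a kilobase towards the start, chr5:140611036-140611560, 3.96 kb downstream of the start and chosen after its values were seen, held 9.07 and 15.9 CPM on day 2, 9.47 and 11.9 on day 3, 23.3 and 18.5 on day 6, and 31.1 and 31.8 on day 7. It rose 1.99-fold from day 3 to day 6 (0.99 ± 0.22, adjusted p = 0.000668). With Gdf11 it held 17.3 and 23.1 CPM, below both day 7 libraries, but that change was not called.

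The Lfng start region, chr5:140607027-140607489, had the highest mean of its regions over all 10 libraries, with 17.1 to 27.7 CPM, although the region at 3.96 kb had the higher mean on days 6 and 7 and with Gdf11. It fell by 0.54 ± 0.19 at day 3 (adjusted p = 0.0475), a call that did not pass in 6 of 10 alternatives, at -0.50 without day 3 replicate 1 (adjusted p = 0.208) and with each of the other 3 libraries left out too. The 250 bases before the start, at chr5:140607091-140607340 on the plus strand, are shown because a match to the RBPJ motif GTGGGAA, 109 to 103 bases before the start, overlaps a match to the Hes motif CACGTG, 112 to 107 bases before it. Capitals mark the joined matches.
Lfng: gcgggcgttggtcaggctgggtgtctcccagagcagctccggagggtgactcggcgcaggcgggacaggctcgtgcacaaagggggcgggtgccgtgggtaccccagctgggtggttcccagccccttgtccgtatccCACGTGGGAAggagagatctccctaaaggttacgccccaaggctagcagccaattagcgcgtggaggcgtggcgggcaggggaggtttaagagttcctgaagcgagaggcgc

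Among the Notch targets, Hes7, the repressor at the core of the clock, fell between day 3 and day 6 and was lower with Gdf11 than on day 7. Its 6 regions summed to 88.9 and 87.7 CPM on day 2, 95.4 and 111 on day 3, 68.9 and 76.7 on day 6, 89.5 and 95.8 on day 7, and 59.6 and 58.0 with Gdf11. The Gdf11 libraries were the lowest of all 10. The change from day 2 to day 3, 0.22 ± 0.10, was not called (adjusted p = 0.125). The fall from day 3 to day 6 was 1.41-fold (-0.50 ± 0.10, adjusted p = 0.00048) and that with Gdf11 against day 7 was 1.57-fold (-0.65 ± 0.10, adjusted p = 3.45e-05). The rise from day 6 to day 7, 0.35 ± 0.10 (adjusted p = 0.0444), did not pass when any 1 of the 4 libraries was left out (0.28 to 0.45).

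Regions at both ends of Hes7 were each called in 1 of these falls. Upstream, the region at the beginning of the span (chr11:69118761-69119278, 1.43 kb before the listed start) had 19.2 and 10.5 CPM on day 2, 26.6 and 27.6 on day 3 and 13.2 and 12.1 on day 6. Its fall at day 6 was 2.13-fold (-1.09 ± 0.22, adjusted p = 0.000168). Its rise at day 3, 0.85 ± 0.22 (adjusted p = 0.00407), was 0.44 without day 2 replicate 2 (adjusted p = 0.291). The day 2 libraries lay far apart. Downstream, the most open region (chr11:69124115-69124789, just past the end of the gene and 0.628 kb from Aloxe3) held 40.3 and 42.4 CPM on day 7 and 25.9 and 24.9 with Gdf11. That difference was 1.63-fold (-0.70 ± 0.17, adjusted p = 0.0057; -0.69 and 0.0598 without day 7 replicate 2). Inside the gene, 3.4 kb downstream of the start, chr11:69123744-69123972 held 10.3 and 13.4 CPM on day 7 and 6.63 and 5.89 with Gdf11. That fall of -0.90 ± 0.26 (adjusted p = 0.0358) did not pass in DESeq2 (adjusted p = 0.0817) or without day 7 replicate 2 (-0.74, adjusted p = 0.351), day 7 Gdf11 replicate 1 (-1.02, adjusted p = 0.116) or day 7 Gdf11 replicate 2 (-0.87, adjusted p = 0.159), nor without TMM factors (-0.72, adjusted p = 0.133). No region covered the listed Hes7 start itself.

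Nrarp, a feedback inhibitor that Notch induces, had a promoter that was open throughout and a small region beside it that was highest on day 3. Summed over 16 regions it stood at 88.9 and 94.6 CPM on day 2, 85.8 and 94.9 on day 3, 86.5 and 79.5 on day 6, 109 and 118 on day 7, and 77.2 and 88.8 with Gdf11. Only the untreated day 7 libraries stood apart. The rise from day 6 was 0.45 ± 0.10 (adjusted p = 0.00589), and it did not pass without day 6 replicate 2 (0.41, adjusted p = 0.0851) or without day 7 replicate 2 (0.42, adjusted p = 0.0911). The fall with Gdf11 was -0.45 ± 0.10 (adjusted p = 0.00222), and over regions inside the span alone it was -0.40 (adjusted p = 0.0716). From day 2 to day 7 the rise of 0.31 ± 0.10 (adjusted p = 0.0108) was 0.27 without day 2 replicate 1 (adjusted p = 0.0665) and 0.25 without day 7 replicate 2 (adjusted p = 0.0948).

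The brief opening lay at chr2:25179782-25180003, 0.866 kb upstream of the Nrarp start. It held 0.540 and 0.675 CPM on day 2, 7.19 and 6.27 on day 3, 1.90 and 1.55 on day 6, 1.30 and 0.912 on day 7, and 1.92 and 2.22 with Gdf11. Peaks were listed there in both day 3 libraries and in no other library. The rise at day 3 was 11-fold (3.46 ± 0.51, adjusted p = 7.07e-07) and the fall by day 6 was 3.84-fold (-1.94 ± 0.43, adjusted p = 0.000658). The promoter region next to it, chr2:25180444-25181111, held 24.4 to 37.4 CPM in all 10 libraries and was called in 1 comparison, at 0.44 ± 0.17 from day 2 to day 7 (adjusted p = 0.0325). That call did not pass in 6 of 10 alternatives. The 250 bases before the start, at chr2:25180508-25180757 on the plus strand, are shown for comparison with Lfng: they hold the Hes motif CACGTG, in capitals, 108 to 103 bases before the start, without the RBPJ letters.
Nrarp: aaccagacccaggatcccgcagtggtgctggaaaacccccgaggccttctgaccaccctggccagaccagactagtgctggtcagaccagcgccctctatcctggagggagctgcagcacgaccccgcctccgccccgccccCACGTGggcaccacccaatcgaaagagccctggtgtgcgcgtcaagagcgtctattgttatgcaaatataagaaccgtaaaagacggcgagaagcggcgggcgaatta

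The boundary genes Mesp2 and Ripply2, and Mesp1, were the least open of the 9. Per kilobase of region, the mean level over all libraries was 37.7 CPM for Hes7, 28.2 for Lfng, 27 for Dll1, 20.7 for Nrarp, 17.7 for Notch1, 15.6 for Dll3, 10.6 for Ripply2, 7.25 for Mesp1 and 5.7 for Mesp2. The ranges over the 10 libraries overlapped between all neighbours in this order. Mesp2 ranged from 2.05 to 9.38 CPM per kilobase and Hes7 from 26.3 to 50.1, so the ends of the order did not meet.

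Mesp1, a transcription factor of early mesoderm, was highest on day 3. Its 8 regions summed to 8.85 and 11.1 CPM on day 2, 14.3 and 15.2 on day 3, 10.2 and 10.7 on day 6, 8.37 and 7.45 on day 7, and 9.15 and 10.0 with Gdf11. The day 3 libraries lay above all others, but the change of 0.57 ± 0.22 missed the threshold (adjusted p = 0.0514). Counted only over regions inside the gene span, the Mesp1 change at day 3 was -0.26 (adjusted p = 0.651). A region outside the span, chr7:79789332-79789725 downstream of the gene, is part of the 50 kb sum and had the same course. It held 0.648 and 0.810 CPM on day 2, 6.14 and 7.01 on day 3, 1.65 and 2.26 on day 6, 1.12 and 1.67 on day 7, and 1.48 and 1.11 with Gdf11. It rose 8.92-fold at day 3 (3.16 ± 0.51, adjusted p = 4.2e-06) and fell 3.4-fold by day 6 (-1.77 ± 0.43, adjusted p = 0.00243; -1.51 and 0.106 without day 6 replicate 1). It lies 2.52 kb from the Mesp1 span and 3.38 kb from Wdr93, so its assignment rests on a small difference in distance. Peaks were listed there in both day 3 libraries alone. The region over the Mesp1 start, chr7:79793526-79793625, held at most 1.34 CPM in any library and did not pass the filter. The one with the highest mean, chr7:79799135-79799356 at 5.66 kb upstream, held 2.11 to 3.49 CPM and was called in no comparison.

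Mesp2, which acts at the segment boundary, was barely detected. All 3 of its regions together held between 14 and 44 counts per library, and 1 passed the filter. The summed level was 2.91 and 5.67 CPM on day 2, 3.42 and 5.97 on day 3, 3.22 and 4.38 on day 6, 1.30 and 2.43 on day 7, and 3.84 and 3.11 with Gdf11. The day 7 libraries were the lowest, and the change from day 2 was -1.24 ± 0.46 (adjusted p = 0.0214). It did not pass without day 2 replicate 2 (-0.75, adjusted p = 0.268) or without day 7 replicate 1 (-0.79, adjusted p = 0.258). No other change of the Mesp2 sum was called. The region over its start, chr7:79810678-79810806, held at most 1.4 CPM and did not pass the filter. The tested one, chr7:79811042-79811448 inside the gene, fell by 1.70 on the log2 scale from day 2 to day 7 (adjusted p = 0.00638), a call lost without day 2 replicate 2 (-1.26, adjusted p = 0.106) or day 7 replicate 1 (-1.10, adjusted p = 0.187).

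Ripply2, the repressor that ends Mesp2 activity, had the largest change among the 77 regions at day 3. At chr9:86980119-86980492, 35.2 kb upstream of its start, there were 0.648 and 1.35 CPM on day 2 and 17.4 and 16.7 CPM on day 3. The level was back at 2.64 and 2.12 CPM on day 6, 1.12 and 1.52 on day 7 and 2.01 and 2.56 with Gdf11. The rise was 17.4-fold (4.12 ± 0.39, adjusted p = 2.33e-12) and the fall by day 6 was 7.03-fold (-2.81 ± 0.33, adjusted p = 2.83e-09). Both calls held without each library in turn. Ripply2 was the nearest gene and Cyb5r4, at 41.5 kb, the next. A second region, chr9:86999993-87000271 at 15.4 kb upstream, rose from 2.16 and 2.02 CPM to 7.01 and 5.37 CPM at day 3 (1.57 ± 0.40, adjusted p = 0.00424; 1.32 and 0.123 without day 3 replicate 1). It fell to 1.73 and 1.27 CPM on day 6 (-2.01 ± 0.41, adjusted p = 0.000238).

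The region over the Ripply2 start, chr9:87015275-87016327, was called in no comparison. It held 11.5 and 12.3 CPM on day 2, 8.59 and 5.97 on day 3, 7.83 and 10.5 on day 6, 8.00 and 8.36 on day 7, and 8.37 and 7.89 with Gdf11. Its region with the highest mean, chr9:86972452-86973273 at 42.7 kb upstream, held 21.8 and 15.5 CPM on day 2 and 7.25 and 10.6 CPM on day 7, a fall of -1.09 ± 0.25 (adjusted p = 0.000394). The direction of the gene's sum depended on the window. Over 50 kb, Ripply2 stood at 50.7 and 42.0 CPM on day 2, 64.1 and 54.3 on day 3, and 27.6 and 37.6 on day 6, with a change of 0.36 at day 3 that was not called (adjusted p = 0.0624). That rise was called with replicate number added to the model (0.36, adjusted p = 0.0173) and with only the 4 libraries compared in the fit (0.40, adjusted p = 0.03). Within 10 kb the day 3 change was called in the opposite direction, at -0.68 (adjusted p = 0.045). The fall from day 3 to day 6 was -0.89 ± 0.14 over 50 kb (adjusted p = 1.69e-05) and 0.27 within 10 kb (adjusted p = 0.497). The fall from day 2 to day 7 was -0.87 ± 0.15 (adjusted p = 8.98e-06), and -0.54 within 10 kb (adjusted p = 0.0589).

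**Figure D3:**
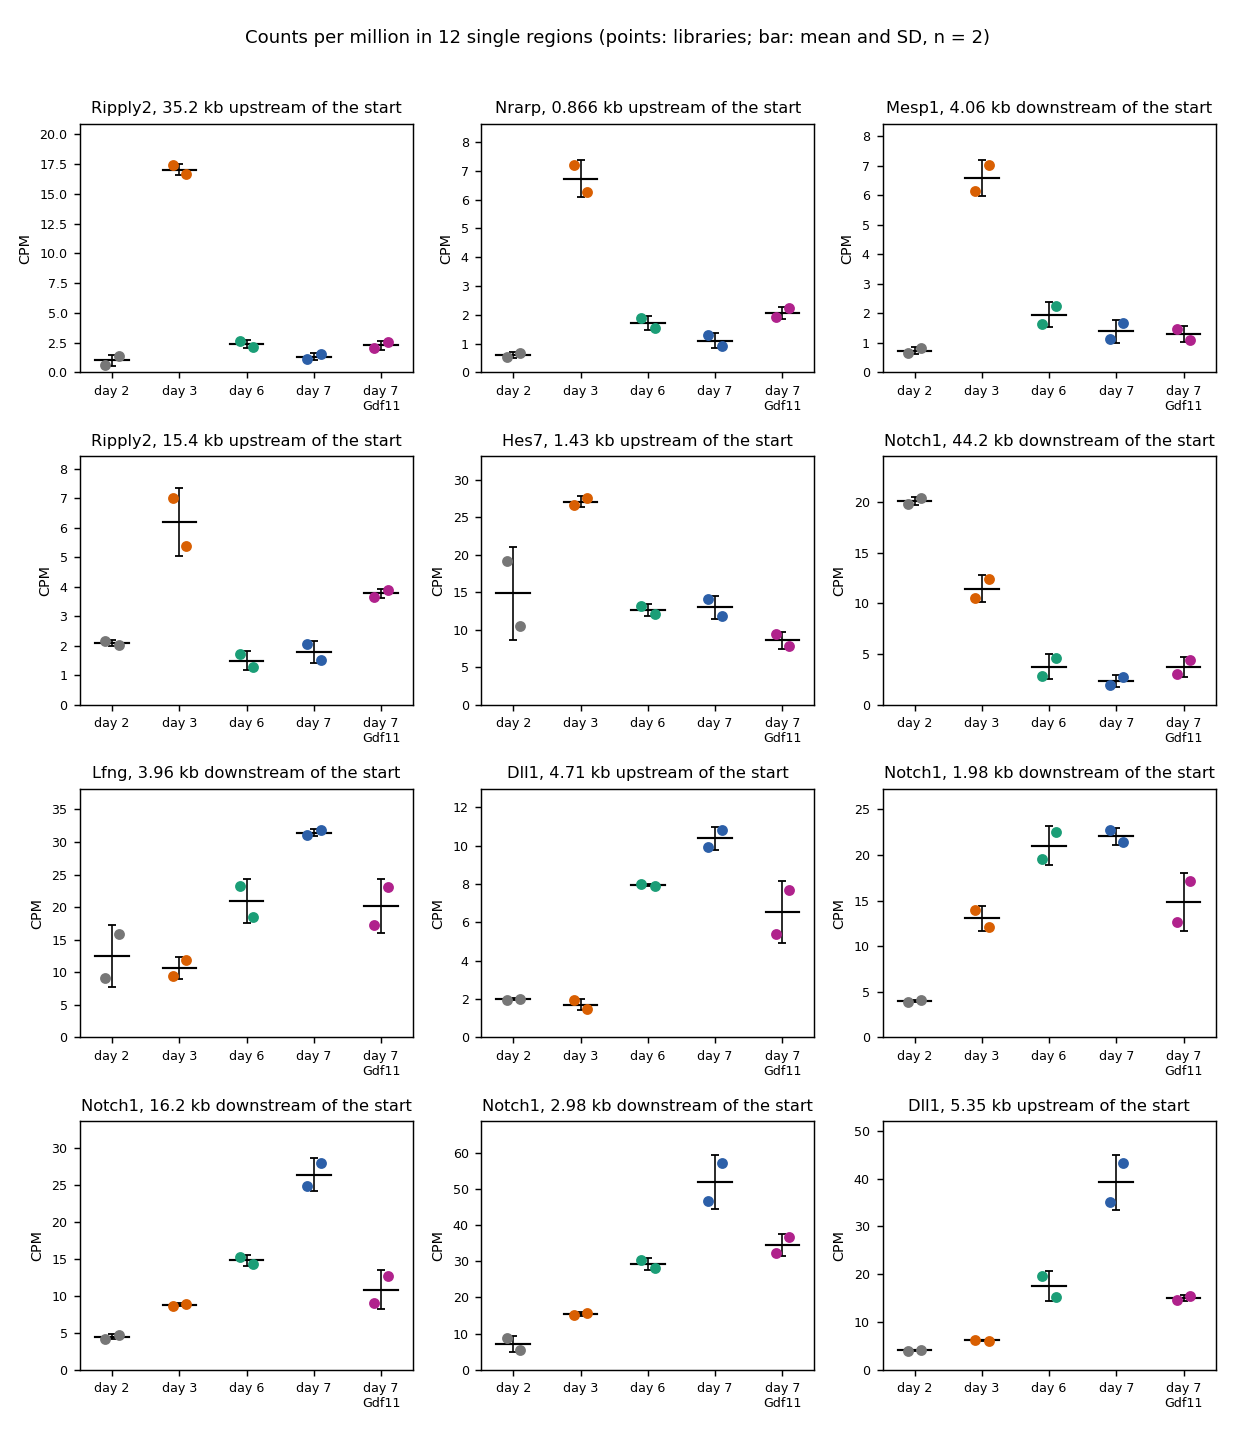
CPM (vertical axes, from 0) in 12 single regions of Ripply2, Nrarp, Mesp1, Hes7, Notch1, Dll1 and Lfng by group (horizontal axis); points are libraries and bars the mean and SD of 2. The 5 panels of Ripply2, Nrarp, Mesp1 and Hes7 were chosen as called higher at day 3 and lower at day 6. Their high level on day 3 follows from that choice. The rest were chosen by the smallest adjusted p between day 2 and day 7. Of these, the Notch1 region at 44.2 kb falls from day 2 on, and the other 6 rise to day 6 or day 7.

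In all, 5 regions rose at day 3 and fell again by day 6: 2 of Ripply2 and 1 each of Nrarp, Mesp1 and Hes7. Of all 173175 tested regions, 2068 (1.19%) did so. The 2 comparisons share the day 3 libraries. Another 3 regions, all of Notch1, rose at both steps, as did 2984 (1.72%) of all regions. Of the 9 genes of the caudal epiblast list, 5 were higher and 0 lower on day 3, where 12.4% of all genes rose and 10.4% fell. On day 6, 1 was higher and 5 lower, where 9.48% of all genes rose and 10.8% fell. Cdx1, Cdx2, Nkx1-2 and Fgf8 were called at both steps, Wnt8a was called at day 6 (-1.18 ± 0.13) and not at day 3, and T rose at day 6 (0.71 ± 0.16). The list stood at 576 to 585 CPM on day 3 and 481 to 487 on day 6. The part of a changed cell composition in the day 3 regions was not tested.

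**Figure D4:**
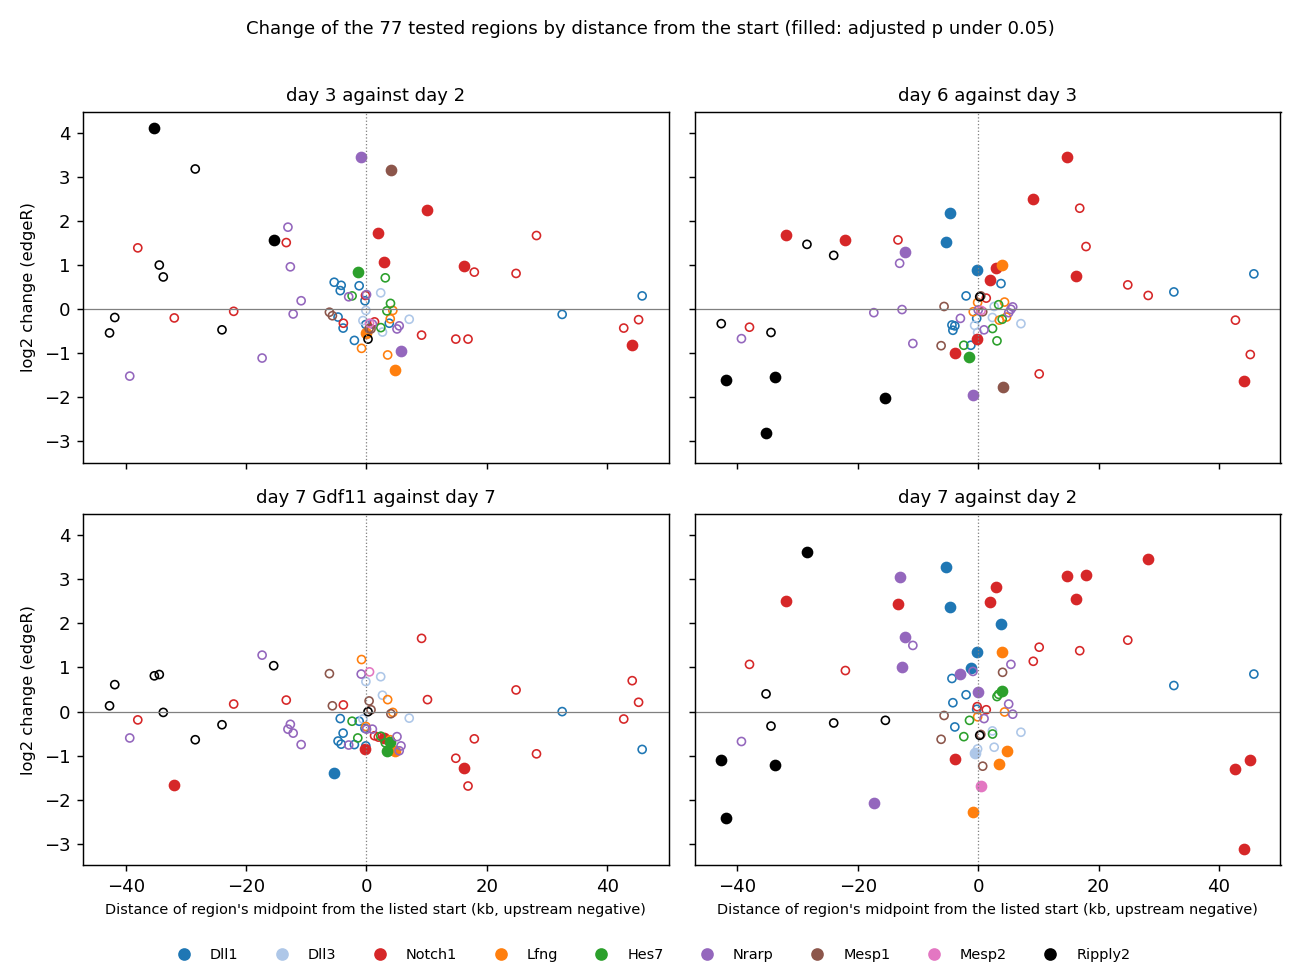
Log2 change of each of the 77 tested regions (vertical axis) against the distance of its midpoint from the nearest listed start (horizontal axis, kb, upstream negative) in 4 comparisons; colours are genes and filled points have an adjusted p under 0.05. The largest rises at day 3 lie 35.2 kb upstream of Ripply2, 0.866 kb upstream of Nrarp and 4.06 kb downstream of Mesp1, away from the starts themselves.

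Day 7 cells with Gdf11 were also set against day 6, the time at which the factor was added. In that comparison 0 of the 77 regions rose and 0 fell in edgeR's test, where 1.06% of all regions rose and 1.34% fell. DESeq2 called 0 of the 77. None of the 9 genes was called, where 0.652% of genes rose and 1.30% fell. At an unadjusted p under 0.05 in edgeR's test, 2 regions were higher and 7 lower, and 0 genes were higher and 1 lower. The shares of all regions and genes at that unadjusted p were not computed, so these counts cannot be read as a trait of the 9 genes. The gene changes lay between -0.30 ± 0.11 for Hes7 and -0.01 ± 0.10 for Nrarp. These values show no called difference from day 6, which does not show that the 2 states were alike.

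The day 7 comparisons were sensitive to the scaling. Without TMM factors the median change of all genes shifted by -0.11 for day 7 against day 6, by 0.17 for Gdf11 against day 7 and by -0.13 for day 7 against day 2. The share of called genes that were higher went from 84.4% to 46.9%, from 15.6% to 67.7% and from 56.3% to 42.5% in these comparisons, and from 33.4% to 59.7% for Gdf11 against day 6. For regions it went from 82.5% to 68.9% at day 7. Under that scaling Hes7, Dll1 and Notch1 were still lower with Gdf11 than on day 7, while Lfng (-0.29, adjusted p = 0.0963) and Nrarp (-0.28, adjusted p = 0.0501) did not pass. The calls of Hes7 at day 7 against day 6 (0.24, adjusted p = 0.185) and of Nrarp from day 2 to day 7 (0.17, adjusted p = 0.134) were also lost.

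The sums of the neural, mesodermal and caudal epiblast marker lists moved in the same comparisons as Dll1 and Notch1, but not all of their genes did. The caudal epiblast list stood at 481 to 487 CPM on day 6, 515 to 593 on day 7 and 388 to 392 with Gdf11. Of its 9 genes, 2 were higher and 1 lower on day 7 than on day 6, where 3.64% of all genes rose and 0.673% fell. With Gdf11, 0 were higher and 4 lower than on day 7, where 2.09% of all genes rose and 11.4% fell. The neural list held Sox1, Pax6, Olig2, Nkx6-1, Irx3 and Neurog2. It stood at 674 to 703 CPM on day 6, 822 to 859 on day 7 and 515 to 583 with Gdf11. Of its 6 genes, 2 were higher on day 7 than on day 6, where 3.64% of all genes rose. With Gdf11, 5 of the 6 were lower than on day 7, where 11.4% of all genes fell. The 6 genes of the presomitic and paraxial mesoderm list stood at 189.7 to 192 CPM on day 6, 229.6 to 265 on day 7 and 171 to 173 with Gdf11. On day 7, 2 of the 6 were higher than on day 6, Meox1 (0.56 ± 0.14) and Aldh1a2 (0.60 ± 0.12). Msgn1 (-0.02 ± 0.19), Tcf15 (0.15 ± 0.13), Foxc2 (0.14 ± 0.16) and Tbx6 (-1.90 ± 0.96, on few counts) were not called. With Gdf11, 3 of the 6 were lower than on day 7: Meox1, Aldh1a2 and Foxc2. At day 3, 1 gene of the mesoderm list was higher and 2 (Tcf15 and Foxc2) lower, where 12.4% of all genes rose and 10.4% fell. The sum of that list went from 181 to 195 CPM on day 2 to 163 to 164 on day 3. The gene higher at day 3 was Tbx6, the T-box factor of presomitic mesoderm, with 2.1 and 2.54 CPM on day 3 and at most 0.907 CPM in every other library. That call (1.91 ± 0.70, adjusted p = 0.0438 in edgeR's test) rests on 6 and 4 counts on day 2 and 24 and 17 on day 3. The feeder fibroblast list stayed between 165 and 233 CPM over the 10 libraries. The part of cell composition in the fall of the Notch genes was not tested.

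Other genes of the pathway were taken from a list of 49 ligands, receptors, processing factors, targets and somite genes, of which up to 4 in each direction with the smallest p are named. At day 3, 13 of the 49 rose and 8 fell, with a median change of 0.03, where 12.4% of all genes rose and 10.4% fell; without day 2 replicate 2 the total was 12 in place of 21. The Wnt feedback genes Axin2 (1.07 ± 0.10) and Nkd1 (0.84 ± 0.12) rose, as did Dusp4 (0.74 ± 0.10), a phosphatase that limits MAP kinase signalling, and Spry4 (0.66 ± 0.13), an inhibitor of Fgf signalling. The fringe genes Rfng (-0.80 ± 0.21) and Mfng (-0.71 ± 0.18), which modify Notch receptors as Lfng does, fell with the ephrin gene Efnb2 (-0.71 ± 0.08) and the paraxial mesoderm factor Tcf15 (-0.60 ± 0.13).

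At day 6, 12 of the 49 rose and 2 fell, with a median of 0.07, where 9.48% of all genes rose and 10.8% fell; without day 3 replicate 1 the total was 9 in place of 14. The Notch coactivator gene Maml3 (0.51 ± 0.08), the non-canonical ligand gene Dlk1 (0.80 ± 0.13) and the Hes family genes Hes3 (0.82 ± 0.13) and Hes5 (0.72 ± 0.12) rose. Spry4 (-0.76 ± 0.13) and Numbl (-0.37 ± 0.12) fell. At day 7, 6 rose and 1 fell, with a median of 0.14, where 3.64% rose and 0.673% fell, and the total of 7 became 3 without day 6 replicate 2 and 1 without day 7 replicate 2. The ephrin receptor gene Epha4 (0.44 ± 0.08), Hes5 (0.54 ± 0.11), Hes3 (0.61 ± 0.13) and Dlk1 (0.53 ± 0.12) rose, and Spry4 fell (-0.53 ± 0.14). Over the course from day 2 to day 7, 23 rose and 9 fell, with a median of 0.24, where 29.6% of all genes rose and 23.0% fell. Dlk1 (1.56 ± 0.13), Maml3 (0.86 ± 0.08), Nkd1 (1.31 ± 0.12) and Hes5 (1.23 ± 0.12) rose, and Spry4 (-0.63 ± 0.14), Efnb2 (-0.33 ± 0.08), Dll4 (-0.57 ± 0.14) and Cer1 (-0.82 ± 0.24) fell. Of the canonical ligand genes on the list, Dll4 and Jag2 (-0.50 ± 0.15) fell and Jag1 (0.47 ± 0.09) rose.

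With Gdf11 against day 7, 1 of the 49 rose and 19 fell, where 2.09% of all genes rose and 11.4% fell. The median was -0.20 where that of all genes was -0.10. The paraxial mesoderm factor Meox1 (-1.21 ± 0.15), Epha4 (-0.63 ± 0.08), Hes5 (-0.80 ± 0.11) and Hes3 (-0.87 ± 0.13) fell, and Heyl rose (0.56 ± 0.16). The total of 20 was 8 without day 7 replicate 2, 9 without day 7 Gdf11 replicate 1, and 8 (2 higher, 6 lower) without TMM factors. Against day 6, Ripply1 (-0.74 ± 0.18), Meox1 (-0.65 ± 0.15) and Axin2 (-0.42 ± 0.09) were lower and none was higher, where 1.30% of all genes fell and 0.652% rose, with 0 called without day 6 replicate 1.

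The genes most like each of the 9 in level over the 10 libraries were named as a description, with the members' own neighbours within 1 Mb left out. Notch1 was most like Nr2f2 (Pearson r = 0.991) and Gm4861 (r = 0.99), Dll1 like Por (r = 0.975) and Zfp869 (r = 0.973), and Nrarp like Smim4 (r = 0.971) and Tmed1 (r = 0.969). Hes7 was most like Ppp1r8 (r = 0.97) and Hoxb1 (r = 0.958), Lfng like S1pr3 (r = 0.955) and Ccdc40 (r = 0.953), and Dll3 like Ccdc149 (r = 0.972) and Lhx6 (r = 0.968). Ripply2 was most like Tlx3 (r = 0.963) and Cxadr (r = 0.957), Mesp1 like Spry4 (r = 0.936) and Klf5 (r = 0.932), and Mesp2 like Syt17 (r = 0.919) and Sel1l3 (r = 0.911). The points share libraries and depth, and each is the best of many genes.

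Motif letters were searched on both strands of the 250 bases before each listed start, for 10 starts of the 9 genes and for all 32851 starts in the RefSeq table. The RBPJ letters GTGGGAA occurred at Lfng and Hes7 and in 5.42% of all promoters, and the Hes letters CACGTG at Lfng and Nrarp and in 6.02%. The Lef/Tcf letters CTTTGAT occurred at Mesp1 (3.21% of all) and the Cdx letters TTTATGG at Hes7 (2.43%). The T-box letters AGGTGTG (5.1%) and the Smad letters GTCTAGAC (0.167%) occurred at none of the 10. A match is a run of letters and not a bound site.

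The authors' deposited tables give motif enrichment over the regions they called, not over these genes. The direction of up and down is taken here from the names of the tables and was not tested. Values are from the authors' deposited tables named all peaks, except where the one named join peaks is given. In the authors' deposited tables of regions up, the natural log of p of the motif named Rbpj1 was -6.256 from day 2 to day 3, -21.35 from day 3 to day 6, -7.027 from day 6 to day 7 and -3.111 between day 7 and day 7 Gdf11. In the authors' deposited tables of regions down it was -1.276, -0.2116, -0.2852 and -7.281. The shares were close: in the authors' deposited table of regions up from day 3 to day 6, Rbpj1 occurred in 32.68% of target and 29.94% of background sequences (row 131 of 414). In the authors' deposited table of regions down from day 3 to day 6 it occurred in 29.72% and 30.23%. For the motif RBPJ:Ebox the authors' deposited tables gave -1.374, -17.0, -2.249 and -0.795 in regions up and -14.3, -13.82, -1.339 and -9.508 in regions down, in the same order. In the authors' deposited table of join peaks up, Rbpj1 had -4.281, -4.068, -2.981 and -0.5944 and RBPJ:Ebox -2.558, -2.183, -2.973 and -0.1833. There, from day 3 to day 6, Rbpj1 occurred in 33.5% of target and 31.02% of background sequences. Tbx6 had -30.97 in the authors' deposited table of regions up from day 2 to day 3 and -20.23 in that of regions down from day 3 to day 6. Slug, a Snail family factor, had -69.07 in the authors' deposited table of regions down from day 2 to day 3 and -131.5 in that from day 3 to day 6. For scale, the first row in the authors' deposited table of regions up from day 3 to day 6, Hoxc9, had -1956.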

How the data were processed

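Reads were aligned and peaks called by the authors; the submitters' processing notes name HISAT2 2.1.0, MACS2 2.1.1.20160309, SAMtools, bedtools, HOMER 4.10 and the mm10 build. The deposited counts are raw read counts per region and library, without coordinates. The deposited peak lists, 1 per library, give a fold enrichment ratio and a −log10 q-value per peak, both the authors' own values, which served only to describe peaks. The deposited motif tables hold a score, the log of an enrichment p. Recomputed from each table's shares as a natural log, it differed by at most 1.25% over 34 motif entries. Entries with a log of p near 0 were left out of that check, and some of them differed by more. Tbx6 in regions up from day 3 to day 6 had -0.003484 in the authors' deposited table and -0.003238 when recomputed. Merged peaks in character order of chromosomes matched the count rows: no library had a 0 count in its own peaks.

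Regions were tested with edgeR 4.0.16 (R 4.3.3; filterByExpr, TMM, quasi-likelihood F test, all 10 libraries in one fit, common dispersion 0.0402), and checked on simulated data. Protein-coding spans are those of RefSeq for GRCm38.p6 (21900 genes); 190637 regions were assigned. DESeq2 1.42.0, other scalings, windows and left-out libraries were alternatives. The members and gene lists were chosen with earlier results of these data known. Named were all 9 genes, per comparison up to 6 called regions with the smallest p, each gene's most open and start regions, up to 4 other pathway genes per direction with the smallest p, and the 2 most alike genes with mean CPM above the median of tested genes (log2 of CPM plus 0.5).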

Additional observations from a re-analysis of the deposited data

How the results depend on the processing

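Depth limits the regions with few counts, above all those of Mesp1 and Mesp2, and 2 libraries a group limit every test. Regions are assigned by distance alone. Over single regions the difference between replicates correlated between groups at r = -0.001 to 0.046. Counting noise in regions with few counts lowers such an r, so it cannot exclude that replicate numbers pair the libraries. In every group replicate 1 had the higher total count, the lower mitochondrial share and the larger TMM factor. With the replicate block the genes called were 4 at day 3 and 4 at day 6 in place of 1 and 2, and 1 with Gdf11 against day 6. The regions called at day 7 were 5 in place of 3, and the other pathway genes called were 11 in place of 7 at day 7 and 5 in place of 3 with Gdf11 against day 6; other counts moved by less than 1.5 times.

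With library sizes alone the genes called were 2 at day 3 and 3 with Gdf11 against day 7 in place of 5; the regions called with Gdf11 against day 7 were 4 in place of 8, as in DESeq2 (4), and the other pathway genes 8 in place of 20. With only the 4 libraries compared, 3 genes were called at day 3, 4 at day 6, and 5 regions at day 7. With a 10 kb window 2 genes were called at day 3 and 1 at day 6; with regions inside the span only, 2 at day 3, 1 at day 6 and 1 at day 7. Leaving out 1 library gave 8 to 13 regions at day 3, 11 to 21 at day 6, 1 to 2 at day 7, 3 to 9 with Gdf11 against day 7, 0 against day 6 and 22 to 29 from day 2 to day 7. For the 9 genes it gave 1 to 2, 2 to 3, 1 to 3, 4 to 5, 0 and 5. For the other pathway genes it gave 12 to 17, 9 to 14, 1 to 6, 8 to 21, 0 to 3 and 25 to 30.

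Signs changed in these settings, with no value called both in the main test and in the setting that changed its sign. Between settings, Ripply2 at day 3 was called in opposite directions. It was higher with the replicate block (0.36, adjusted p = 0.0173) and with only the 4 libraries compared (0.40, adjusted p = 0.03). Within 10 kb it was lower (adjusted p = 0.045). Within 10 kb, Ripply2 was -0.68 at day 3, 0.27 at day 6 and -0.0031 with Gdf11 against day 7, and Nrarp 0.02 at day 3. Inside the span only, at day 3 Dll1 was 0.11, Mesp1 -0.26, Ripply2 -0.68 and Nrarp 0.12; at day 6 Dll1 was -0.02, Mesp1 0.03 and Ripply2 0.27; Ripply2 was -0.0031 with Gdf11 against day 7, Dll3 0.11 with Gdf11 against day 6, and Hes7 -0.13 from day 2 to day 7. With library sizes alone, Hes7 was -0.07 and Lfng -0.08 from day 2 to day 7, and Nrarp 0.05 and Dll3 0.0029 with Gdf11 against day 6. For the latter Nrarp was 0.0023 without mitochondrial regions in the library sizes and 0.02 in DESeq2, and 0.02 at day 3 with only the 4 libraries compared. With 1 library left out, values that crossed 0 ranged at day 3 from -0.16 to 0.01 for Dll1, -0.33 to 0.59 for Mesp2 and -0.11 to 0.02 for Nrarp, and at day 6 from -0.67 to 0.10 for Mesp2. With Gdf11 against day 6 they ranged from -0.33 to 0.15 for Lfng, -0.31 to 0.10 for Dll1, -0.20 to 0.14 for Dll3, -0.32 to 0.12 for Mesp2, -0.32 to 0.13 for Ripply2 and -0.14 to 0.09 for Nrarp, and from day 2 to day 7 from -0.03 to 0.15 for Lfng. The cause was not tested for these changes beyond what each window leaves out. When 1 library was left out, single region calls held in 221 cases and were lost in 99, and single gene calls held in 59 and were lost in 13.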
